A study of Mus musculus with 6 samples.

Results

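Guidance ligands and receptors are the ephrins, semaphorins, slits and netrins together with their Eph, plexin, Robo and Unc5 receptors. Members were taken by gene symbol alone, and 63 of the 18112 genes in the expression table matched. The ephrin family had 21 members (8 ephrin ligands and 13 Eph receptors), the semaphorin-plexin family 28 (19 ligands and 9 plexins), the netrin family 8 (4 ligands and 4 Unc5 receptors) and the slit-robo family 6 (3 slits and 3 Robo receptors). RNA was sequenced on a BGISEQ-500 instrument from primary aortic vascular smooth muscle cells (VSMCs) of C57BL/6 mice, in 3 libraries of Smyd2 fl/fl cells (labelled Flox) and 3 of Smyd2 SMC-/- cells (labelled SMYD2 KO). Smyd2 encodes a lysine methyltransferase. Both genotypes carry the floxed alleles, and the Smyd2 SMC-/- mice also carry a Tagln-Cre (SM22α-Cre) transgene, used to target smooth muscle. As a limitation, the study cites reports of Tagln expression in some other cell types. No Cre is named for the littermate controls, so the transgene and the loss of Smyd2 cannot be told apart. The sample labels give passage 6 and 10% serum, while the study's methods give an earlier passage, overnight starvation and a different RNA reagent, and which of these applied is not settled here. The study speaks of independent experiments for its data in general, but whether the 3 libraries of a genotype came from separate animals or cultures is not given, so every p-value measures the spread between these libraries, which may be technical.

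Guidance cues were first known for steering growing axons, and the same molecules direct migrating endothelial, neural crest and smooth muscle cells. Slits are secreted and bind Robo receptors, class 3 semaphorins are secreted and bind plexins with or without a neuropilin co-receptor, and other semaphorins are held in the membrane. Ephrins are membrane-bound and signal on contact with Eph receptor tyrosine kinases of a neighbouring cell, and netrins are laminin-related proteins read by Dcc, neogenin and Unc5 receptors. In arteries, ephrin-B2 marks arterial identity and the netrin receptor Unc5b is found on vascular cells.

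Levels are FPKM, which corrects the fragment number of a gene for how long its transcript is and how deeply the library was sequenced, so genes are compared per length. Values of each gene are given in the order replicate 1, 2 and 3. From the spacing of the low values, the libraries held about 17400000 to 19950000 fragments, and 1 fragment on a transcript of 2000 bases was worth 0.026 to 0.0299 FPKM. Smyd2, the targeted gene, measured 7.87, 3.10 and 3.0 FPKM in Smyd2 fl/fl cells and 1.67, 0.40 and 0.80 FPKM in Smyd2 SMC-/- cells. No library overlapped between genotypes, with the Smyd2 SMC-/- cells lower, and replicate 1 was the highest of each genotype. The difference was −1.48 ± 0.389 (SE) on the log2(FPKM + 1) scale, a scale that understates the change of low genes. The adjusted p was 0.105 in limma without a block and 0.0189 with a term for the replicate number (the replicate block), and the two-sided exact permutation test over the 6 libraries gave p = 0.1, the smallest it allows.

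The replicate 1 libraries stood apart. The first principal component of all genes tested held 50.2% of the variance and placed replicate 1 of each genotype (−58.6 and −25.4) away from replicates 2 and 3 of the same genotype (3.11 and 2.74, and 39.1 and 39.1). The second held 33.1% and separated the genotypes, with Smyd2 fl/fl libraries between 8.34 and 32.9 and Smyd2 SMC-/- libraries between −48.3 and −9.4. Results are therefore also given for replicates 2 and 3 alone, 2 libraries against 2. As replicate 1 was set aside after the same data showed it apart, a smaller p in that fit is not stronger evidence. Among the members tested, 8 (18.2%) had replicate 1 below 0.5 times both other replicates in each genotype, beside 4.23% of all genes tested. These were Sema3c, Sema3d, Sema3f, Ntn1, Ntn4, Slit3, Plxna4 and Plxnb1. Another 2 (4.55%), Efnb3 and Sema6b, had replicate 1 over 2 times both others in each genotype, beside 2.33% of all genes. These lists include genes named after their values were seen.

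Markers of the labelled cell type and of others were read next. The 8 smooth muscle markers summed to 1420, 1230 and 1250 FPKM in Smyd2 fl/fl cells and 544, 726 and 701 FPKM in Smyd2 SMC-/- cells. Acta2, smooth muscle actin, was the most abundant of them and fell by 1.55 on the log2 scale (limma adjusted p = 0.00803), whereas Myh11, the smooth muscle myosin heavy chain, measured 0.01 to 0.22 FPKM in all libraries and was below the filter. Of 7 tested smooth muscle markers, 1 (Acta2) was lower without a block and 2 (Acta2 and Cald1) with the replicate block. Mylk was higher in all 3 same-numbered pairs, by 0.81 in all libraries (limma adjusted p = 0.505) and 0.99 in replicates 2 and 3 alone (0.00335), where Lmod1 was also higher (0.83, 0.00335) and Tagln and Cnn1 differed by −0.08 and −0.07. Over all libraries Tagln and Cnn1 differed by −0.92 and −0.91 (limma adjusted p = 0.496 and 0.399), with −2.60 and −2.57 between the replicate 1 libraries, and Lmod1 by 0.24 (0.817). The 8 adventitial fibroblast markers summed to 287, 609 and 529 FPKM in Smyd2 fl/fl cells and 56, 190 and 168 FPKM in Smyd2 SMC-/- cells. Of 7 tested, 5 were lower in all 3 same-numbered pairs. These were Dpt (144, 90.3 and 65.5 FPKM against 3.31, 1.15 and 0.63 FPKM), Cd34 and Pdgfra without overlap, the last at 18.1, 31.9 and 29.8 FPKM against 11.8, 4.85 and 7.10 FPKM, and Ly6a and Pi16 with overlap. Lum was higher in all 3 same-numbered pairs (0, 1.31 and 1.17 FPKM against 0.26, 14.5 and 10.4 FPKM), and Clec3b differed by 0.05 on the log2 scale with mixed pairs. Ly6a was the most abundant of them, none was at 0 in every library, and 1 (Dpt) was called lower without a block and 3 (Dpt, Ly6a, Cd34) with the replicate block. In replicates 2 and 3 alone Dpt, Pdgfra, Cd34, Ly6a and Pi16 were called lower (limma adjusted p of 1.08e-05 to 0.0127) and Lum higher (2.57, 7.4e-05). The block for replicate 1 called these genes in the same directions (5.32e-05 to 0.0467). The part of these shifts in the values of the guidance genes was not tested, and in bulk RNA fewer cells of a type and less RNA per cell cannot be told apart. The study describes stripping the endothelium and the adventitia before culture. It states a minimum purity that smooth muscle actin staining of every batch was to ensure, with no measured value for these libraries. The 9 endothelial markers in the table summed to 1.86 to 2.16 FPKM in Smyd2 fl/fl cells and to 2.0, 5.61 and 3.16 FPKM in Smyd2 SMC-/- cells, while the endothelial cadherin Cdh5 was at most 0.01 FPKM. Kdr measured 0.47, 0.58 and 0.84 FPKM in Smyd2 fl/fl cells and 0.96, 5.15 and 2.96 FPKM in Smyd2 SMC-/- cells, and Pecam1, below the filter, 0.56, 0.88 and 0.92 FPKM and 0.12, 0.18 and 0 FPKM, both without overlap. The 7 leukocyte markers summed to 18.3 to 42.6 FPKM, mostly Cd14, with the pan-leukocyte gene Ptprc at most 0.02 FPKM. Csf1r was higher without overlap (0.58, 0.53 and 0.48 FPKM against 1.66, 1.42 and 1.14 FPKM), and Lyz2 was lower in all 3 pairs with overlap (1.04, 3.78 and 4.04 FPKM against 1.01, 1.41 and 1.69 FPKM). The 7 Schwann and neural markers summed to 22.4 to 39.5 FPKM, mostly Tubb3, with Sox10 at most 0.02 FPKM. S100b was higher in all 3 pairs with overlap, at 0.34, 1.38 and 1.02 FPKM against 0.98, 12.7 and 7.40 FPKM. None of Kdr, Csf1r, Lyz2 and S100b was called without a block or with the replicate block (limma adjusted p of 0.102 to 0.398 and 0.0565 to 0.144), and in replicates 2 and 3 alone all 4 were (0.000832 to 0.0192). With the block for replicate 1, Kdr, Csf1r and S100b were called higher (limma adjusted p = 0.0349, 0.0217 and 0.0327) and Lyz2 was not called (0.0778).

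Of the 63 members, 44 averaged 0.5 FPKM or more over all 6 libraries and were tested among 12565 genes. The other 19 stayed at or below 0.69 FPKM in every library, and 9 members were at 0 in at least 1 library. All 8 ephrin ligands, 15 of 19 semaphorins, 8 of 9 plexins and 7 of 13 Eph receptors passed the filter, against 1 of 4 Unc5 receptors and 0 of 3 Robo receptors. Of the tested members, Ntn1, Ntn3, Sema7a and Plxnb3 had a mean under 0.5 FPKM in one genotype and passed through the other. The 15 members with a mean of at least 10 FPKM were led by the plexin Plxnb2, whose lowest library measured 141 FPKM.

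**Figure D1:**
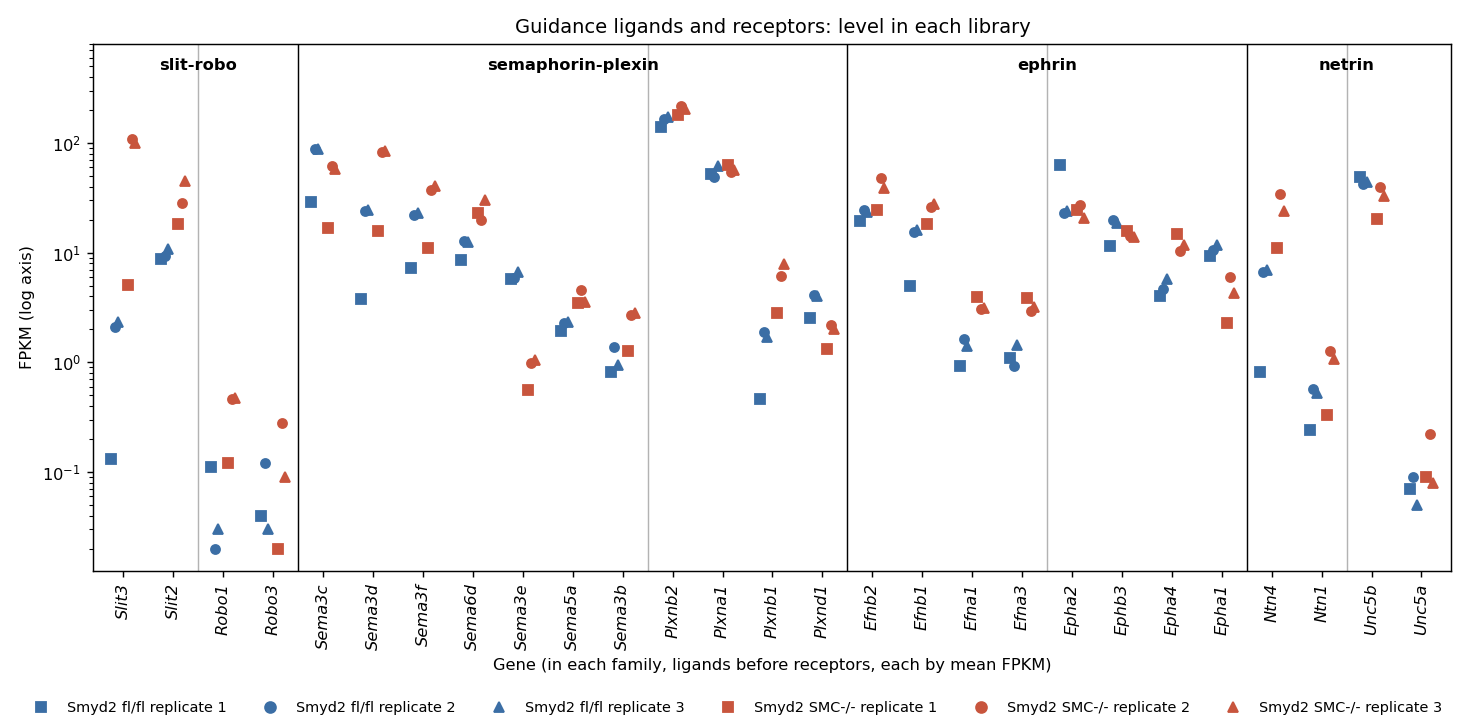
FPKM (log axis) of the members described by library, with Smyd2 fl/fl in blue and Smyd2 SMC-/- in red and squares, circles and triangles for replicates 1, 2 and 3. Slit3 spans from 0.13 FPKM in Smyd2 fl/fl replicate 1 to 109 FPKM in Smyd2 SMC-/- replicate 2, while Robo1 and Robo3 stay below 0.5 FPKM in every library.

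More members were higher than lower in Smyd2 SMC-/- cells, by a difference above 0 for 29 of 44, beside 48.0% of all genes. In limma without a block, 1 of the 44 (2.27%) was lower at an adjusted p under 0.05, beside 1.21% of all genes tested, and 2 (4.55%) were higher, beside 1.23%. These were Sema3e, lower, and Efna3 and Epha4, higher, so of 28 ligands 1 was called each way and of 16 receptors 1 was called higher and 0 lower (at an unadjusted p under 0.05, 13 members or 29.5% were higher, beside 9.16% of all genes, and 3 or 6.82% lower, beside 11.2%). With the replicate block 4 (9.09%) were lower, beside 5.72% of all genes, and 10 (22.7%) were higher, beside 4.72%, among them 2 ligands and 2 receptors lower and 8 ligands and 2 receptors higher. A block for replicate 1 against the others gave 4 lower (9.09%, background 11.1%) and 15 higher (34.1%, background 9.17%). Replicates 2 and 3 alone gave 7 lower (15.9%, background 17.2%) and 17 higher (38.6%, background 11.9%). In those last fits the share lower was under that of all genes. By role, the block for replicate 1 gave 2 ligands (7.14%) and 2 receptors (12.5%) lower and 12 (42.9%) and 3 (18.8%) higher, and replicates 2 and 3 alone gave 2 ligands (7.14%) and 5 receptors (31.2%, above the background) lower and 14 of 28 and 3 of 16 (18.8%) higher. Without the 4 members whose mean reached the filter in one genotype only, replicates 2 and 3 alone gave 6 of 40 lower (15.0%, beside 16.9% of such genes) and 15 higher (37.5%, beside 10.9%), and the counts of the other 3 fits were the same. Without any fit, the genotypes did not overlap with Smyd2 SMC-/- lower for 4 members (9.09%), beside 15.0% of all genes, and with Smyd2 SMC-/- higher for 13 (29.5%), beside 13.1%. Within same-numbered libraries, 9 members were lower in all 3 pairs, beside 29.3% of all genes, and 22 were higher in all 3, beside 25.8%.

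The median difference was 0.33 on the log2(FPKM + 1) scale over the 44 members and −0.02 over all genes tested. Over the 28 ligands it was 0.50, with 21 above 0, and over the 16 receptors 0.02, with 8 above 0. Rescaling each library to TPM moved the median of all genes by 0.113 to 0.10, and with it 21 ligands and 9 receptors lay above 0, with medians of 0.73 and 0.15. Of all genes tested, 48.0% lay above 0 before this rescaling and 60.2% after it. Relative to the median of all genes, the ligands stood higher under both scales, and the receptor median moved with that of all genes. In replicates 2 and 3 alone the medians were 0.43 for ligands, −0.11 for receptors and −0.06 for all genes. No test of the lists, or of ligands against receptors, was made.

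**Figure D2:**
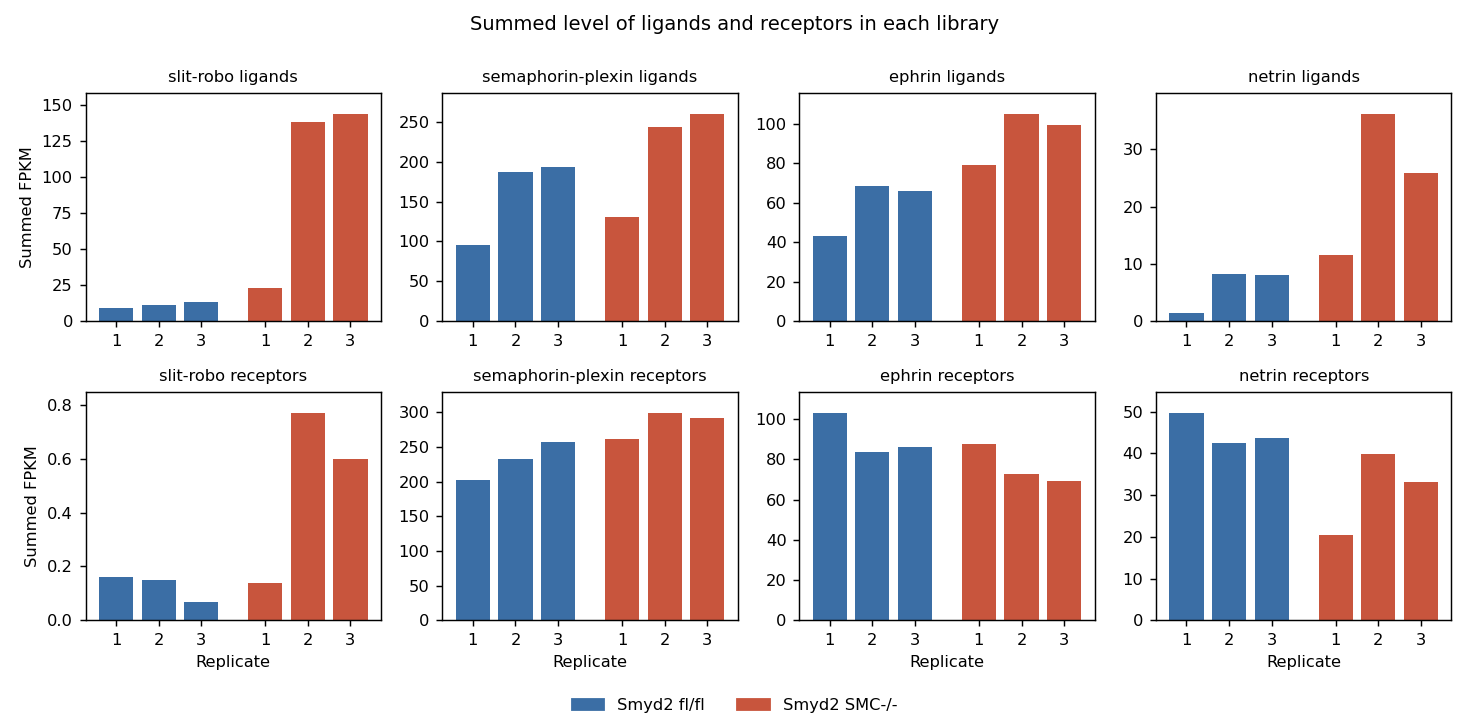
Summed FPKM of the ligands and of the receptors of each family in each library, with bars from 0, Smyd2 fl/fl in blue and Smyd2 SMC-/- in red. Slits summed to 9.09 to 13.3 FPKM in Smyd2 fl/fl cells and 23.3 to 144 FPKM in Smyd2 SMC-/- cells, and Robo receptors to at most 0.77 FPKM, while summed Eph receptors overlapped between genotypes at 83.7 to 103 and 69.4 to 87.8 FPKM.

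Slit3 had the highest difference of the 44 members. This secreted Robo ligand measured 0.13, 2.10 and 2.31 FPKM in Smyd2 fl/fl cells and 5.03, 109 and 99.2 FPKM in Smyd2 SMC-/- cells. Replicate 1 was far below the others in each genotype, yet the groups did not overlap. The ratio of the group means was 47.0, and 47.3 over replicates 2 and 3 alone. On the log2(FPKM + 1) scale the difference was 4.16 ± 1.15 (SE), with a limma adjusted p of 0.116 without a block and 0.0259 with the replicate block. In replicates 2 and 3 alone it was 5.04 ± 0.106 (limma adjusted p = 7.08e-07), and without Smyd2 SMC-/- replicate 1 it was 5.54 (limma adjusted p = 0.0079), while without each of the other 5 libraries it was 3.44 to 4.44 (0.211 to 0.344). Slit2, the other slit above the filter, measured 8.80, 9.22 and 10.9 FPKM in Smyd2 fl/fl cells and 18.1, 28.3 and 44.9 FPKM in Smyd2 SMC-/- cells, again without overlap. Its difference was 1.48 ± 0.31, with a limma adjusted p of 0.0646 without a block, 0.0247 with the replicate block and 0.0182 without Smyd2 SMC-/- replicate 1, but 0.12 to 0.205 without each of the other 5 libraries. In limma without a block neither slit passed at the adjusted threshold and both had an unadjusted p under 0.05. Slit1 stayed at or below 0.16 FPKM.

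The Robo receptors, through which slits act, were low in every library. Robo1 measured 0.11, 0.02 and 0.03 FPKM in Smyd2 fl/fl cells and 0.12, 0.46 and 0.47 FPKM in Smyd2 SMC-/- cells. Its groups do not overlap, but replicate 1 differed by only 0.01 FPKM between genotypes and the gene was below the filter. Robo3, a divergent family member, measured 0.04, 0.12 and 0.03 FPKM in Smyd2 fl/fl cells and 0.02, 0.28 and 0.09 FPKM in Smyd2 SMC-/- cells, with overlap. Robo2 was at most 0.04 FPKM.

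Both slits were called higher with the replicate block, and their promoters are shown for that reason. RefSeq promoter windows on GRCm38.p6 ran from 250 bases before to 50 after a start. On 1 chromosome the windows of members were left out, while those of all genes were kept. Windows were used for 54 of the 63 members (70 windows). Each was searched on both strands for the GC box GGGCGG, the TATA box TATAAA and the CArG box, the serum response factor motif, counting GC boxes that overlap each other separately. Capitals mark matches. The Slit2 window (chr5:47982905-47983204, plus strand) holds 3 GC boxes and 1 TATA box, and the Slit3 window (chr11:35121206-35121505, plus strand) holds 6 GC boxes. They contain 30 and 41 CpG dinucleotides, beside a median of 7 over all 32841 windows and 18.5 over the member windows.
Slit2: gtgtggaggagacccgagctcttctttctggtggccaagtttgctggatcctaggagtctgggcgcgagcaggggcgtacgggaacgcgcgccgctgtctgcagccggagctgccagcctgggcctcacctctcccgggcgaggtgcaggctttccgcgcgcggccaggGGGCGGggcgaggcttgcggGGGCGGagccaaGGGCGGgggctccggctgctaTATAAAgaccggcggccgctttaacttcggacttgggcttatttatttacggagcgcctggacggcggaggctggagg
Slit3: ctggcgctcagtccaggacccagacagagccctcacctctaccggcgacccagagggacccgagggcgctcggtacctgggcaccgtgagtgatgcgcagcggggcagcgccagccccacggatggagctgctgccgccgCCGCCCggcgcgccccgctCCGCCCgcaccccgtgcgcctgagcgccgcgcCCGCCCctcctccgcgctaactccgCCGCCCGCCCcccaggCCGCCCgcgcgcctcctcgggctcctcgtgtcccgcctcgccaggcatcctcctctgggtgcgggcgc
A GC box was present in 71.4% of member windows and 35.7% of all windows, a TATA box in 2.86% and 13.6%, and a CArG box in 2.86% and 1.63%. Of members called with the replicate block, 8 of 11 windows of those higher and 4 of 4 of those lower held a GC box. Their median CpG numbers were 22 and 18.5. The 2 member windows with a CArG box belong to Robo1 and to 1 of the Sema4d starts. A match is a description of these letters and not of a bound site.

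The class 3 semaphorins differed in both directions, and of the 6 tested, 1 was called without a block (Sema3e, lower), and 2 lower and 2 higher with the replicate block, beside 5.72% and 4.72% of all genes. Sema3e, which binds Plxnd1 directly and repels endothelial cells, measured 5.73, 5.92 and 6.64 FPKM in Smyd2 fl/fl cells and 0.56, 0.98 and 1.04 FPKM in Smyd2 SMC-/- cells. All Smyd2 SMC-/- libraries were lower, and the ratio of the group means was 0.141. The gene fell by 1.94 ± 0.176 (SE) on the log2 scale (limma adjusted p = 0.00699, and 0.00847 with the replicate block). Without Smyd2 fl/fl replicate 2 or 3 its limma adjusted p was 0.0541 or 0.057. Sema3c, a neural crest and outflow tract cue, measured 28.7, 88.1 and 89.0 FPKM in Smyd2 fl/fl cells and 16.6, 62.2 and 58.2 FPKM in Smyd2 SMC-/- cells. It was lower in each same-numbered pair, but the groups overlap because replicate 1 of Smyd2 fl/fl is below replicates 2 and 3 of Smyd2 SMC-/- cells. The difference was −0.62 ± 0.633, with a limma adjusted p of 0.655 without a block and 0.032 with the replicate block. Without Smyd2 SMC-/- replicate 1 it was −0.02 and without Smyd2 fl/fl replicate 1 −1.15, and −0.94 to −0.35 without each other library.

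Sema3d, a secreted cue known from endothelial patterning, measured 3.74, 23.7 and 24.5 FPKM in Smyd2 fl/fl cells and 15.7, 83.1 and 85.2 FPKM in Smyd2 SMC-/- cells. The groups overlap, while the 3 same-numbered differences were nearly equal, at 1.82, 1.77 and 1.76 on the log2 scale. Its limma adjusted p was 0.316 without a block (1.78 ± 0.88) and 0.00427 with the replicate block, and the difference was 0.98 without Smyd2 fl/fl replicate 1 and 1.38 to 2.56 without each other library. Sema3f, a neuropilin-2 ligand, measured 7.25, 22.1 and 23.2 FPKM in Smyd2 fl/fl cells and 11.0, 37.1 and 40.4 FPKM in Smyd2 SMC-/- cells. It was higher in each pair with overlapping groups, at 0.68 ± 0.609 (limma adjusted p = 0.601, and 0.0283 with the replicate block), and 0.17 to 1.26 without single libraries (lowest without Smyd2 fl/fl replicate 1, highest without Smyd2 SMC-/- replicate 1). Sema3b, also a neuropilin ligand, measured 0.81, 1.38 and 0.95 FPKM in Smyd2 fl/fl cells and 1.27, 2.71 and 2.80 FPKM in Smyd2 SMC-/- cells. The groups overlap, and limma adjusted p was 0.227 without a block, 0.0826 with the replicate block and 0.0379 with the block for replicate 1. The class 3 genes together summed to 57.0, 149 and 153 FPKM in Smyd2 fl/fl cells and 51.3, 196 and 194 FPKM in Smyd2 SMC-/- cells, so the sum was lower in replicate 1 and higher in replicates 2 and 3.

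Sema3d, Sema3a, Sema3e and Sema3c follow each other in this order on chromosome 5. In the RefSeq promoter table no other gene lies between Sema3d and Sema3a, 3 lie between Sema3a and Sema3e, and 21 between Sema3e and Sema3c. Their starts are 1014, 629 and 3550 kb apart. Sema3a, a neuropilin-1 ligand named here for its place, ranged from 7.42 to 10.6 FPKM in Smyd2 fl/fl and from 6.13 to 9.39 FPKM in Smyd2 SMC-/- cells (−0.25 ± 0.21, limma adjusted p = 0.575). Along this stretch, Sema3d was thus called higher and Sema3e and Sema3c lower with the replicate block, and Sema3a was not called in either fit. Their windows, all on the plus strand, are Sema3d at chr5:12382916-12383215, Sema3a at chr5:13396534-13396833, Sema3e at chr5:14025026-14025325 and Sema3c at chr5:17574566-17574865.
Sema3d: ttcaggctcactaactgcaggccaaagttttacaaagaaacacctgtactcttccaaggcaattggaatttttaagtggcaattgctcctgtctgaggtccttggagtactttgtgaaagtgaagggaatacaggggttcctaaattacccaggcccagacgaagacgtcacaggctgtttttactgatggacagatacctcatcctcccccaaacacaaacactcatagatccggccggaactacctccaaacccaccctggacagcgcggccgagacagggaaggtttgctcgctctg
Sema3a: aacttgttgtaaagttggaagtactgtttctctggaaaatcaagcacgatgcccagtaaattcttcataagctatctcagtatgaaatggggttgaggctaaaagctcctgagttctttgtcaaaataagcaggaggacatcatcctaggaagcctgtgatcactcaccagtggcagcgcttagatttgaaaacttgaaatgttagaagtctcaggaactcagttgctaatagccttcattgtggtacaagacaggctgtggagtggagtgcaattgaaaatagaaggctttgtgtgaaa
Sema3e: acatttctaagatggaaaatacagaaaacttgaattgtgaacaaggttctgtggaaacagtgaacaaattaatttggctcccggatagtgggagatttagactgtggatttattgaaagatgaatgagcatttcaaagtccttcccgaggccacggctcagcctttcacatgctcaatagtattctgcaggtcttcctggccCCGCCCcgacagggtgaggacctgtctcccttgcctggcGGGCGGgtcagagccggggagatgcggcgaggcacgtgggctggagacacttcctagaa
Sema3c: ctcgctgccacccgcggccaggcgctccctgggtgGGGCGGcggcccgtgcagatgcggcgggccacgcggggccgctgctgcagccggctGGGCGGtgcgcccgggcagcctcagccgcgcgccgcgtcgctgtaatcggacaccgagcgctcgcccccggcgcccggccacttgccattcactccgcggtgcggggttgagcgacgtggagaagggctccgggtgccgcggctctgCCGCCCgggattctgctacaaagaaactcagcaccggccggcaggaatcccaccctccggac
The Sema3c window holds 3 GC boxes and 42 CpG, and that of Sema3e 2 GC boxes and 11 CpG. Sema3d and Sema3a hold no GC box, with 8 and 2 CpG, and none of these windows holds the TATA or CArG motif.

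Among the membrane-bound semaphorins, Sema6d, a ligand of Plxna1, measured 8.51, 12.7 and 12.6 FPKM in Smyd2 fl/fl cells and 22.9, 19.9 and 30.2 FPKM in Smyd2 SMC-/- cells. Every Smyd2 SMC-/- library was higher, by 1.05 ± 0.218 on the log2 scale (limma adjusted p = 0.0632, 0.0314 with the replicate block 0.0466 after rescaling to TPM and 0.0702 to 0.234 without single libraries). Sema5a, which carries thrombospondin repeats, measured 1.91, 2.26 and 2.35 FPKM in Smyd2 fl/fl cells and 3.49, 4.56 and 3.58 FPKM in Smyd2 SMC-/- cells. The groups do not overlap, and limma adjusted p was 0.112 without a block, 0.0594 with the replicate block and 0.0239 with the block for replicate 1. Sema6a shows how far the replicate 1 libraries can move a difference, and is named after its values were seen. It measured 0.74, 4.56 and 4.99 FPKM in Smyd2 fl/fl cells and 22.2, 3.61 and 5.86 FPKM in Smyd2 SMC-/- cells, so its difference of 1.22 in all libraries was −0.04 in replicates 2 and 3 alone. The class 4 semaphorins above the filter, Sema4b, Sema4c and Sema4g, overlapped between genotypes, and Sema4a, Sema4d and Sema4f were at most 0.23 FPKM.

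Among the plexins, the most abundant was Plxnb2, a receptor of class 4 semaphorins, at 141, 164 and 174 FPKM in Smyd2 fl/fl cells and 181, 219 and 205 FPKM in Smyd2 SMC-/- cells. It was higher without overlap by a ratio of 1.26 (0.33 ± 0.14, limma adjusted p = 0.247, 0.0896 with the replicate block and 0.0493 with the block for replicate 1). In replicates 2 and 3 alone it was not called (0.32, limma adjusted p = 0.0675). Plxna1, a signalling partner of the neuropilins, measured 52.0, 49.0 and 61.2 FPKM in Smyd2 fl/fl cells and 62.8, 54.7 and 56.4 FPKM in Smyd2 SMC-/- cells. Those ranges overlap, and the 95% interval of every tested member is drawn in the plot of differences. Plxnb1, the receptor of Sema4d, measured 0.46, 1.90 and 1.70 FPKM in Smyd2 fl/fl cells and 2.79, 6.16 and 7.93 FPKM in Smyd2 SMC-/- cells. The groups do not overlap, and the ratio of means was 4.16 (1.47 ± 0.404, limma adjusted p = 0.116, 0.0167 with the replicate block, 0.0451 without Smyd2 SMC-/- replicate 1 and 0.185 to 0.343 without each other library). Plxnd1, the receptor of Sema3e, measured 2.52, 4.12 and 4.02 FPKM in Smyd2 fl/fl cells and 1.33, 2.20 and 2.02 FPKM in Smyd2 SMC-/- cells. It was lower without overlap, as its ligand was, with a limma adjusted p of 0.171 without a block (−0.67 ± 0.226) and 0.0461 with the replicate block.

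**Figure D3:**
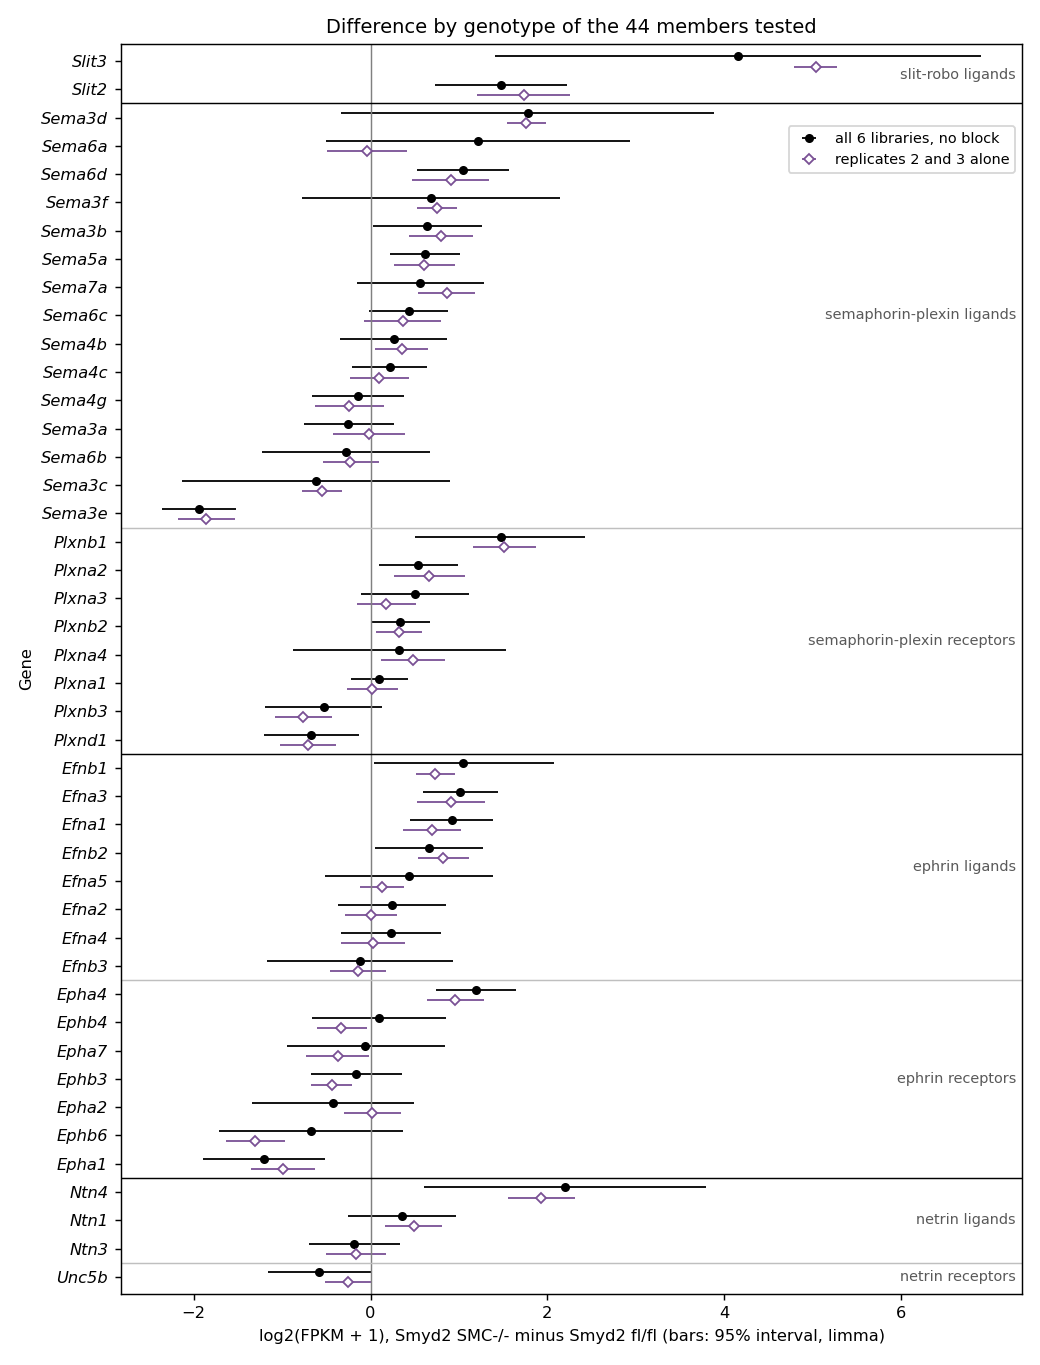
Difference between genotypes in log2(FPKM + 1), Smyd2 SMC-/- minus Smyd2 fl/fl, for the 44 members tested, with 95% intervals from limma on all 6 libraries (black) and on replicates 2 and 3 alone (purple). Slit3 is at 4.16 and 5.04 and Sema3e at −1.94 and −1.86, and the intervals are narrower without replicate 1 for Slit3, Sema3d and Sema3c.

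Of the 8 ephrin ligands, 1 was called higher without a block (background 1.23%) and 2 with the replicate block (4.72%). Their differences were above 0 for 7, also after TPM and quantile scaling, beside 48.0% of all genes, 60.2% after TPM and 48.6% after quantile scaling, and those of Efna2, Efna4 and Efna5, whose groups overlap, were 0.13 or less in replicates 2 and 3 alone. Meanwhile 2 of 7 tested Eph receptors were above 0, and 3 after TPM scaling. Efna3, a lipid-anchored ligand of EphA receptors, measured 1.09, 0.92 and 1.43 FPKM in Smyd2 fl/fl cells and 3.87, 2.95 and 3.16 FPKM in Smyd2 SMC-/- cells. The groups do not overlap, and it rose by 1.01 ± 0.178 on the log2 scale (limma adjusted p = 0.0444). It kept its call without Smyd2 SMC-/- replicate 1 (limma adjusted p = 0.0461), but not without any 1 of the other 5 libraries (0.0767 to 0.186) or without the filter (0.0564). Efna1, a ligand of Epha2, measured 0.92, 1.64 and 1.41 FPKM in Smyd2 fl/fl cells and 3.96, 3.05 and 3.10 FPKM in Smyd2 SMC-/- cells. It was higher without overlap, by 0.92 ± 0.193 (limma adjusted p = 0.065, 0.0514 with the replicate block and 0.0166 with the block for replicate 1). Efna1, Efna3 and Efna4 lie close together on chromosome 3, with starts 42.1 and 16.3 kb apart and 3 and 1 other genes between them, and Efna4 overlapped between genotypes at 6.73 to 8.36 and 6.68 to 13.1 FPKM.

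Efnb2 and Efnb1 had the highest means of the ephrin ligands, and Efnb3, transmembrane as they are, had the lowest. Efnb2, the arterial ephrin, measured 19.2, 24.7 and 23.7 FPKM in Smyd2 fl/fl cells and 24.6, 48.4 and 39.1 FPKM in Smyd2 SMC-/- cells. The groups overlap only in that replicate 1 of Smyd2 SMC-/- is just under replicate 2 of Smyd2 fl/fl. The difference was 0.66 ± 0.255, with a limma adjusted p of 0.217 without a block, 0.0508 with the replicate block, 0.0219 with the block for replicate 1 and 0.0426 without Smyd2 SMC-/- replicate 1 (0.93), but 0.351 to 0.495 without each of the other 5 libraries (0.45 to 0.73). Efnb1, a ligand of EphB receptors, measured 4.99, 15.5 and 16.1 FPKM in Smyd2 fl/fl cells and 18.4, 26.3 and 27.5 FPKM in Smyd2 SMC-/- cells. It was higher without overlap, by 1.05 ± 0.424 (limma adjusted p = 0.232, and 0.0497 with the replicate block), and by 0.56 without Smyd2 fl/fl replicate 1.

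Among Eph receptors, Epha4, which binds ephrins of both classes, measured 4.06, 4.65 and 5.80 FPKM in Smyd2 fl/fl cells and 14.9, 10.4 and 11.9 FPKM in Smyd2 SMC-/- cells. All Smyd2 SMC-/- libraries were higher, and it rose by 1.19 ± 0.19 on the log2 scale (limma adjusted p = 0.0347). The call held without Smyd2 SMC-/- replicate 1 (limma adjusted p = 0.0351) and was lost without any 1 of the other 5 libraries (0.062 to 0.163) or without the filter (0.0529). Epha1, the founding member of the Eph receptors, measured 9.26, 10.6 and 11.6 FPKM in Smyd2 fl/fl cells and 2.28, 6.05 and 4.29 FPKM in Smyd2 SMC-/- cells. It was lower without overlap, by a ratio of 0.40 (−1.21 ± 0.287, limma adjusted p = 0.0816, and 0.0335 with the replicate block).

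Epha2, the receptor of Efna1 and the most abundant Eph gene by mean, measured 62.4, 23.1 and 23.9 FPKM in Smyd2 fl/fl cells and 24.4, 27.5 and 20.8 FPKM in Smyd2 SMC-/- cells. Smyd2 fl/fl replicate 1 was far above the other 5 libraries, and the difference of −0.42 ± 0.381 (limma adjusted p = 0.60) became 0.03 without that library. Ephb3, a receptor of B-class ephrins, measured 11.5, 19.7 and 18.7 FPKM in Smyd2 fl/fl cells and 15.6, 14.1 and 13.8 FPKM in Smyd2 SMC-/- cells. It was higher in replicate 1 and lower in replicates 2 and 3 (−0.16 in all libraries, and −0.44 in replicates 2 and 3 alone with a limma adjusted p of 0.0155). The Eph receptors below the filter were at most 0.69 FPKM, the highest value being that of Ephb1.

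In the netrin family, Ntn4, a netrin of basement membranes, measured 0.81, 6.70 and 6.95 FPKM in Smyd2 fl/fl cells and 11.0, 34.3 and 24.2 FPKM in Smyd2 SMC-/- cells. Replicate 1 was the lowest of each genotype and the groups do not overlap. The ratio of means was 4.80 and the difference 2.20 ± 0.667, with a limma adjusted p of 0.139 without a block and 0.0141 with the replicate block. Ntn1, the ligand of Dcc and the Unc5 receptors, measured 0.24, 0.57 and 0.52 FPKM in Smyd2 fl/fl cells and 0.33, 1.27 and 1.06 FPKM in Smyd2 SMC-/- cells. Its groups overlap, and it passed the filter through its Smyd2 SMC-/- mean alone (0.443 and 0.887 FPKM). The difference was 0.36 ± 0.254 (limma adjusted p = 0.497), 0.59 without Smyd2 SMC-/- replicate 1 and 0.21 without Smyd2 SMC-/- replicate 2. Unc5b, a repulsive netrin receptor, measured 49.5, 42.4 and 43.7 FPKM in Smyd2 fl/fl cells and 20.4, 39.5 and 33.1 FPKM in Smyd2 SMC-/- cells. Every Smyd2 SMC-/- library was lower, most so replicate 1 (−0.58 ± 0.243, limma adjusted p = 0.248, and 0.165 with the replicate block), and the difference was −0.31 without that library and −0.25 in replicates 2 and 3 alone. Unc5a, a receptor best known from neurons, measured 0.07, 0.09 and 0.05 FPKM in Smyd2 fl/fl cells and 0.09, 0.22 and 0.08 FPKM in Smyd2 SMC-/- cells, with overlap and below the filter.

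**Figure D4:**
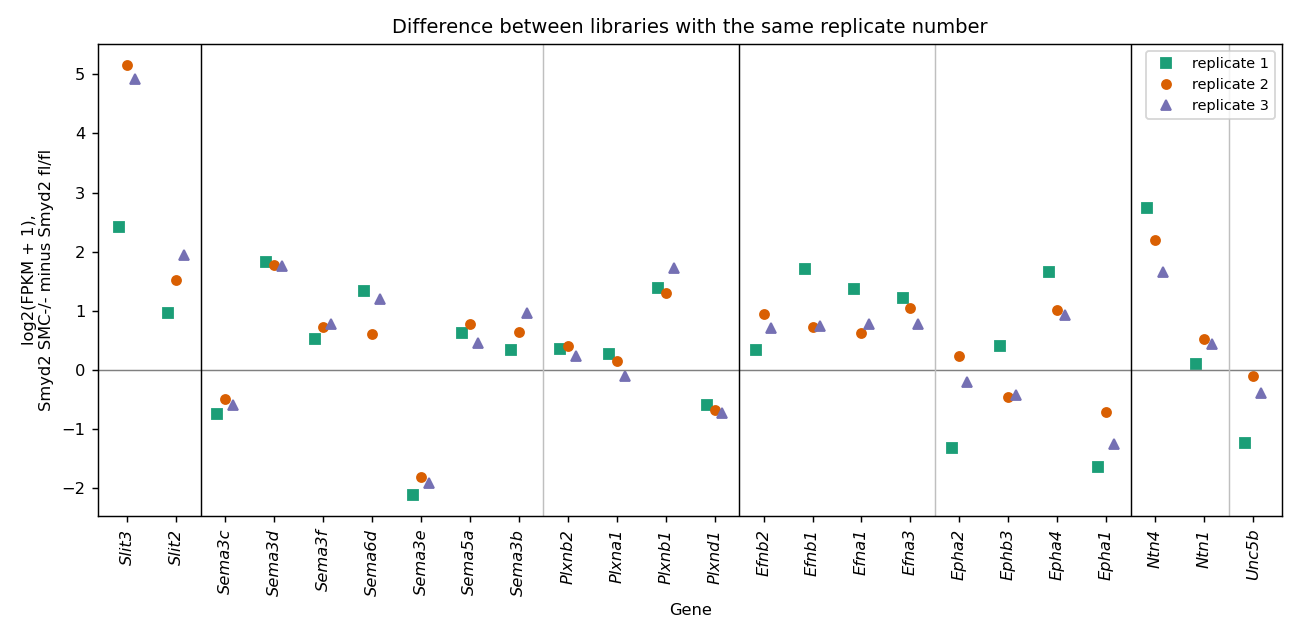
Difference in log2(FPKM + 1) between the Smyd2 SMC-/- and Smyd2 fl/fl libraries of the same replicate number, for the members described by library that passed the filter, with families parted by black lines and ligands from receptors by grey lines. Sema3d lies at 1.82, 1.77 and 1.76 in the 3 pairs, whereas Slit3 lies at 2.42 in replicate 1 and at 5.15 and 4.92 in replicates 2 and 3.

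The partners of these receptors and the proteins that carry their signal were read from fixed lists. Of 18 co-receptors and other partners, 15 were in the table and 9 were tested. In limma without a block 1 was lower and 0 were higher, beside 1.21% and 1.23% of all genes (1 and 2 at an unadjusted p under 0.05, beside 11.2% and 9.16%), and with the replicate block 1 was lower and 1 higher, beside 5.72% and 4.72% of all genes. Nrp1, the neuropilin that binds Sema3a, measured 15.3, 33.0 and 33.0 FPKM in Smyd2 fl/fl cells and 38.6, 46.2 and 45.9 FPKM in Smyd2 SMC-/- cells. Its groups do not overlap (0.74 ± 0.301, limma adjusted p = 0.237, 0.0718 with the replicate block, 0.0292 with the block for replicate 1 and 0.00959 in replicates 2 and 3 alone). Nrp2, the neuropilin that binds Sema3f, measured 8.32, 3.65 and 3.79 FPKM in Smyd2 fl/fl cells and 26.5, 9.90 and 9.14 FPKM in Smyd2 SMC-/- cells. Replicate 1 was the highest of each genotype, the groups do not overlap, and limma adjusted p was 0.187 without a block (1.29 ± 0.457) and 0.0168 with the replicate block. Neo1, neogenin, a receptor of netrins and repulsive guidance molecules, measured 24.5, 27.8 and 30.3 FPKM in Smyd2 fl/fl cells and 30.6, 39.1 and 36.4 FPKM in Smyd2 SMC-/- cells, which just do not overlap (0.35 ± 0.147, limma adjusted p = 0.248, 0.0822 with the replicate block, 0.0391 with the block for replicate 1 and 0.031 in replicates 2 and 3 alone). Rgma, a ligand of neogenin, measured 13.5, 15.2 and 14.8 FPKM in Smyd2 fl/fl cells and 8.92, 7.63 and 7.93 FPKM in Smyd2 SMC-/- cells. It fell by 0.76 ± 0.129 on the log2 scale (limma adjusted p = 0.0417).

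Of 48 effectors, 46 were in the table and 43 were tested. In limma without a block 4 of the 43 were lower and 1 was higher, beside 1.21% and 1.23% of all genes. At an unadjusted p under 0.05 in that fit, 5 of the 43 were lower and 3 higher, beside 11.2% and 9.16% of all genes. With the replicate block 5 were lower and 1 was higher, beside 5.72% and 4.72%. Srgap1, a GTPase-activating protein that binds Robo receptors, measured 7.26, 6.59 and 9.18 FPKM in Smyd2 fl/fl cells and 18.1, 16.4 and 16.0 FPKM in Smyd2 SMC-/- cells. It rose by 1.05 ± 0.155 (limma adjusted p = 0.027). Fes, a tyrosine kinase of semaphorin signalling, measured 4.59, 6.03 and 5.42 FPKM in Smyd2 fl/fl cells and 0.38, 0.59 and 0.68 FPKM in Smyd2 SMC-/- cells. It fell by 2.03 ± 0.175 (limma adjusted p = 0.00536), with all Smyd2 SMC-/- libraries lower. Fyn, a Src family kinase, fell by 1.20 ± 0.211 (limma adjusted p = 0.0444), from 8.72 to 11.5 FPKM in Smyd2 fl/fl to 2.63 to 4.63 FPKM in Smyd2 SMC-/- cells. Dpysl3, a collapsin response mediator, fell by 0.69 ± 0.116 (limma adjusted p = 0.0409), from 80.5 to 86.4 FPKM to 46.6 to 54.6 FPKM. Cfl1, the actin-severing protein cofilin-1, fell by 1.03 ± 0.171 (limma adjusted p = 0.0402), from 1251 to 1793 FPKM to 663 to 720 FPKM. Tiam2, a Rac exchange factor, was not called without a block (−1.05 ± 0.42, limma adjusted p = 0.23) and was called lower with the replicate block (0.0439), with the block for replicate 1 (0.016) and in replicates 2 and 3 alone (0.00126). Over the 43 effectors the median difference was −0.06, beside −0.02 over all genes tested.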

How the data were processed

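RNA of 6 libraries, 3 per genotype, was sequenced by the study. The authors deposited FPKM values, after filtering reads with SOAPnuke, mapping with HISAT and Bowtie2 and estimating expression with RSEM. Versions and genome build are not given in the sources used here. Depth was estimated as the fragment number, with a mean fragment length, that put most low values within 0.15 of a whole fragment (71.5 to 73.5% per library). As this share was itself maximised, it is no test of the estimate. The mean lengths so chosen were 25 to 100 bases, no longer than the study's reads of 100 bases, so the depth is only approximate.

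Here log2(FPKM + 1) was taken for the 12565 genes averaging 0.5 FPKM or more and compared with limma 3.58.1 (trend, robust) in R 4.3.3, Benjamini-Hochberg adjusted over all of them and called at an adjusted p under 0.05 at any fold change. The fits with and without a block or single libraries and the depth estimate were tested on simulated data. For the fits without a block, the simulated libraries had no shared shift of replicate 1. These tests therefore check the code and not how well those fits suit these libraries. The replicate numbers come from the sample labels, and neither the labels nor the study's methods pair the libraries. Same-numbered libraries deviated together from their group means (r = 0.615, 0.46 and 0.527 for replicates 1, 2 and 3 across genes). Replicates 2 and 3 correlated crosswise nearly as much (0.439 and 0.461). Deviations from a group mean cancel out, so a replicate 1 apart in both genotypes also makes the values of replicates 2 and 3 positive. These values therefore do not show a pairing beyond replicate 1. The replicate block is an alternative, given where it changes a call.

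Members with a value in every library are those called in limma without a block, with the replicate block or with the block for replicate 1, and the 2 most abundant per family and role. Pathway genes are those called in either fit, plus Nrp1, Nrp2 and Neo1 (Dcc is not analysed here). Ephb1, Slit1, Robo2, Sema3a, Efna4, Sema6a and other genes named outside this rule were chosen after their values were seen. Members and lists were chosen with earlier results of these data known. Alternatives were the pseudocount (0.1), no filter, the blocks, replicates 2 and 3 alone, TPM and quantile scaling, and leaving out each library.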

Additional observations from a re-analysis of the deposited data

How the results depend on the processing

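In this balanced design a block cannot change the difference between genotypes, only its p. Over the 24 described members that were tested and the other 11 alternatives, 262 of 264 values kept the direction of the difference. Most of these members were picked by a call in a fit of the same libraries, so a kept direction was likely beforehand. Over all 13 alternatives, 247 of 312 values kept direction and side of the threshold, 49 passed it only under the alternative and 14 lost it. The 2 that turned were both of Epha2, at 0.02 in replicates 2 and 3 alone and 0.03 without Smyd2 fl/fl replicate 1, in a range of −0.67 to 0.03 without single libraries.

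Of the 44 tested members 3 were called. The count was 1 without the filter, 14 with the replicate block, 19 with the block for replicate 1, 24 in replicates 2 and 3 alone and 0 to 8 when single libraries were left out. The count of 0 arose without Smyd2 fl/fl replicate 2 or 3, where limma gave 13 and 12 members (29.5 and 27.3%) at an unadjusted p under 0.05, beside 14.5 and 14.9% of all genes, and the 8 without Smyd2 SMC-/- replicate 1. Of all genes, 306 were called, and 1312 with the replicate block, 2550 with the block for replicate 1, 3650 in replicates 2 and 3 alone and 34 to 686 without single libraries. TPM scaling changed the split from 152 lower and 154 higher to 99 and 247. Of the tested members, 17 (38.6%) did not overlap between genotypes, beside 28.1% of all genes. Fewer libraries overlap less often, and the count was 35 (79.5%, all genes 67.6%) in replicates 2 and 3 alone and 17 (38.6%, all genes 31.3%) to 28 (63.6%, all genes 51.0%) without single libraries.

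The Smyd2 difference of −1.48 had an adjusted p of 0.0189 with the replicate block and 0.00328 with the block for replicate 1 (−1.48 in both), and was −1.35 in replicates 2 and 3 alone (0.00126). Over its alternatives the limma adjusted p ranged from 0.00126 to 0.305. The cause of these changes was not tested. As 1 fragment on a transcript of 2000 bases was worth 0.026 to 0.0299 FPKM, levels of that size rest on few fragments.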
